A study of Mus musculus with 6 samples.

Results

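Genes of the endothelium and the blood-brain barrier were examined in thalamus of irradiated mice that had received a control virus (RC) or a NeuroD1 virus (RN). The set held 44 genes chosen by name. No value of these data was in the rule, but earlier results of these data were known when the genes were chosen. They cover endothelial identity, tight junctions, barrier transport, transcription factors and signalling, leukocyte adhesion, and other genes enriched in brain endothelium. All 44 had a row among the 21899 genes of the deposited counts, and 43 passed the filter on low counts, as did 14956 genes in all. The member under the filter was Sele, an adhesion molecule of inflamed endothelium.

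Endothelial cells line the vessels of the brain. There they are joined by tight junctions built from claudins, occludin and the scaffold protein ZO-1, and they carry glucose, amino acids and lipids across the vessel wall through dedicated transporters, while efflux pumps return drugs to the blood. Wnt signals from neighbouring cells, acting through beta-catenin, keep up this barrier state. Radiation injury of the brain is known to loosen the barrier and to raise leukocyte adhesion.

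The mice were male wild-type C57BL/6J, 8 to 10 weeks old, and all 6 had received 50 Gy of gamma rays to the left thalamus. The groups were formed by the virus injected into the thalamus 2 weeks later (2 µL). RC mice received AAV9 GFAP104::tdTomato, a red fluorescent reporter under an astrocyte promoter, and RN mice received AAV9 GFAP104::mND1-tdTomato, the same vector with mouse NeuroD1. Thalamus was taken 6 weeks after irradiation, by tweezers from a coronal slice, and whole tissue was sequenced (n = 3 mice each). Every cell type of the tissue contributed RNA, and fewer endothelial cells and less RNA per endothelial cell cannot be told apart in such libraries. Unirradiated mice were not analysed here, so no value bears on radiation itself.

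Library totals lay between 16561663 and 18657015 counts. Neurod1, the gene of the RN virus, was counted 84, 91 and 90 times in the RC mice and 1123, 1711 and 910 times in the RN mice, where viral transcripts may be counted with those of the mouse gene. The 10 thalamic neuron markers, among them Slc17a6, Tcf7l2, Prkcd and Rora, were all detected, with a summed level of 1096 to 2138 CPM among the RC mice and 818 to 1589 CPM among the RN mice, where CPM are counts scaled to the TMM-adjusted library size. None of the 22 pan-endothelial genes outside the set lay at or under 3 counts in every mouse, and their summed level was 1150.3 to 1272 CPM among the RC mice and 877 to 1035 CPM among the RN mice. Libraries also differed in RNA of the choroid plexus, the epithelium that makes cerebrospinal fluid: the summed level of its 14 markers was 378 to 8590.2 CPM among the RC mice and 123 to 199.8 CPM among the RN mice, highest in RC replicate 2.

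The question was whether vessel and barrier transcripts differed between RN and RC tissue. Of the 43 tested members, 38 had a fitted level below RC and 5 above it, with a median log2 fold change of -0.40 against 0.00372 over all tested genes. All 17 endothelial identity genes were among those below RC, with a median log2 fold change of -0.48 against -0.27 for tight junction genes and -0.16 for barrier transporters. The largest fitted difference was that of Prnd, at 5.67-fold lower. With an adjusted p under 0.05 and at least a 2-fold change, edgeR's quasi-likelihood test called 0 of the 43 members, against 0.0735% of all tested genes, and it called 0 without the fold threshold. At an unadjusted p under 0.05 it found 20 members lower in RN (46.5%), where 6.33% of all tested genes were lower, and 0 higher, where 5.44% of all tested genes were higher. Every RN mouse lay below every RC mouse for 17 members (39.5%) against 8.12% of all tested genes, and every RN mouse lay above every RC mouse for 0 members against 8.18%.

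DESeq2's Wald test, run as a second tool, called Prnd alone at the same thresholds, where 0.542% of all tested genes were called lower. At an adjusted p under 0.05 without a fold threshold, DESeq2 found 0 members higher, where 226 of the 14956 tested genes were higher. It found 9 members lower, where 1.7% of all tested genes were lower. These were Pecam1, Cdh5, Eng, Robo4, Adgrl4, Cd34, Slco1c1, Prnd and Pglyrp1, with adjusted p from DESeq2 between 6.16e-05 and 0.0307. Under the edgeR settings tried as alternatives, the adjusted p of these 9 members lay between 0.0804 and 0.913. Single mice moved the counts: at an unadjusted p under 0.05 edgeR found 11 members lower without RN replicate 1, where 4.91% of all tested genes were lower, and 13 without RC replicate 1, where 6.81% were lower. Without RN replicate 2, the members whose groups did not overlap numbered 27 lower, where 12.9% of all tested genes were lower in this comparison of fewer mice. The count above RC was 1 without RC replicate 3, where 12.2% of all tested genes were above, and 1 without RN replicate 3, where 12.1% were.

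**Figure D1:**
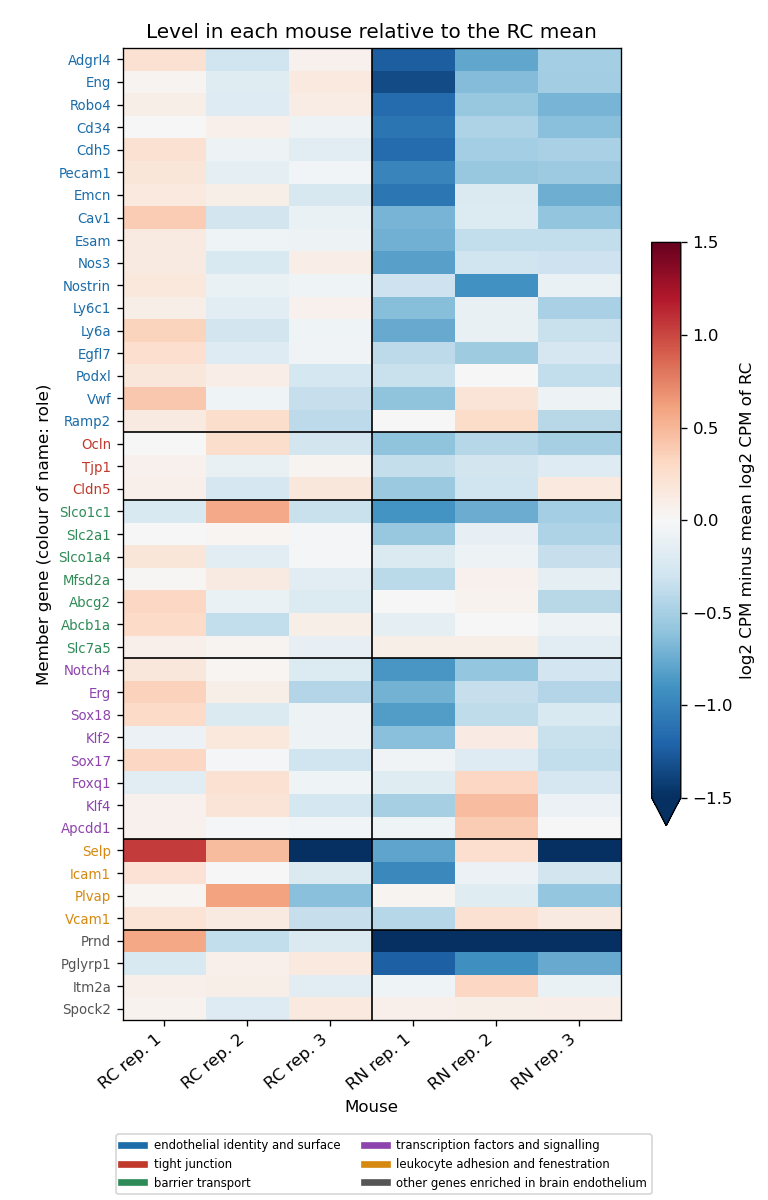
Level of the 43 tested members (rows, grouped and coloured by role) in each of the 6 mice (columns), as log2 CPM minus the mean of the RC mice, with blue for lower and red for higher values. RN replicate 1 is the bluest column for the endothelial identity genes, Prnd is at or beyond the end of the colour scale in all RN mice, and Ramp2, Slc7a5, Klf4 and Spock2 show no separation of the groups.

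All 17 identity and surface genes had a fitted level below RC. Of these, 12 (70.6%) had an unadjusted p under 0.05 in edgeR, where 6.33% of all tested genes were lower. The groups did not overlap for 9 (52.9%), where 8.12% of all tested genes were lower without overlap. Pecam1 (ENSMUSG00000020717), which encodes the junction adhesion protein CD31, lay at 79.4, 63.9 and 68.3 CPM in replicates 1 to 3 of the RC mice, and at 35.2, 47.3 and 47.9 CPM in those of the RN mice. Cdh5 (ENSMUSG00000031871), the cadherin of endothelial adherens junctions, lay at 58.7, 47.7 and 44.9 CPM in replicates 1 to 3 of the RC mice, and at 22.5, 35.1 and 35.7 CPM in those of the RN mice. For both genes the lowest RC mouse was above the highest RN mouse. Pecam1 had a log2 difference of -0.70 in edgeR, with an SE of 0.141 and an adjusted p of 0.122, where the log2 difference is the fitted log2 fold change, negative where RN is lower, and SE its standard error. Cdh5 had a log2 difference of -0.70 in edgeR, with an SE of 0.188 and an adjusted p of 0.189.

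The receptor genes had log2 differences of similar size. Adgrl4 (ENSMUSG00000039167), an adhesion G protein-coupled receptor of endothelium, was at 85.9, 59.8 and 76.7 CPM for the RC mice against 31.1, 42.6 and 51.4 CPM for the RN mice, a log2 difference of -0.83 in edgeR, with an SE of 0.197 and an adjusted p of 0.141. Eng (ENSMUSG00000026814), the TGF-beta co-receptor endoglin, was at 87.9, 75.3 and 95.2 CPM for the RC mice against 33.8, 54.4 and 59.8 CPM for the RN mice, a log2 difference of -0.80 in edgeR, with an SE of 0.2 and an adjusted p of 0.161. Robo4 (ENSMUSG00000032125), a roundabout receptor that stabilises vessels, was at 21.6, 17.7 and 22 CPM for the RC mice against 9.1, 13.6 and 12.5 CPM for the RN mice, a log2 difference of -0.80 in edgeR, with an SE of 0.18 and an adjusted p of 0.135. In all 3 genes RN replicate 1 was the lowest mouse, and without it the log2 fold changes were -0.66, -0.59 and -0.64. Cd34 (ENSMUSG00000016494), a sialomucin of endothelial and blood progenitor cells, was at 73.8, 77.3 and 69.4 CPM for the RC mice against 34.2, 53.2 and 47.6 CPM for the RN mice, without overlap, and had a log2 difference of -0.71 in edgeR, with an SE of 0.154 and an adjusted p of 0.129.

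Smaller differences without overlap were seen for Esam, an endothelial adhesion molecule, for Nos3, the endothelial nitric oxide synthase, and for Egfl7, a secreted vessel protein, with log2 fold changes of -0.48, -0.46 and -0.40. Emcn, the sialomucin endomucin of capillaries and veins, Cav1, the coat protein of caveolae, and Ly6c1, a surface protein of brain endothelium, overlapped between the groups and had log2 fold changes of -0.65, -0.51 and -0.40, all at an unadjusted p under 0.05. The related Ly6a reached -0.40 and Nostrin, which traffics nitric oxide synthase, -0.42, neither at that threshold. Podxl, another sialomucin, had a log2 fold change of -0.24. Ly6c1 and Ly6a are members of a family with similar sequences, and how reads shared within it were assigned is not known, which leaves both values uncertain.

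In Vwf and Ramp2 the groups overlapped widely. Vwf, the clotting factor stored in endothelial granules, was at 73.1, 52.8 and 43.6 CPM for the RC mice against 36.3, 63 and 52.2 CPM for the RN mice, and its log2 fold change of -0.16 (SE 0.235) was 0.068 without RC replicate 1 and 0.029 without RN replicate 1. Ramp2, which forms the adrenomedullin receptor, was at 16.7, 18.3 and 11.6 CPM for the RC mice against 15.3, 18.5 and 11.4 CPM for the RN mice, with a log2 fold change of -0.043 (SE 0.229). The lowest and the highest of all mice were both in RN for Ramp2.

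The 3 tight junction genes all lay below RC on average. Ocln, the membrane protein occludin, was at 19.3, 23 and 15.8 CPM for the RC mice against 12.6, 14.2 and 13.5 CPM for the RN mice, with no overlap and a log2 difference of -0.53 in edgeR, with an SE of 0.162 and an adjusted p of 0.23. Tjp1, which encodes the scaffold ZO-1 and is expressed by many cell types, was at 131, 116 and 129.6 CPM for the RC mice against 98.2, 104 and 110.3 CPM for the RN mice, again without overlap, with a smaller log2 difference of -0.27 in edgeR, with an SE of 0.0887 and an adjusted p of 0.259. Cldn5, the main claudin of brain endothelium, was at 45.2, 36 and 47.9 CPM for the RC mice against 29, 34.6 and 47.3 CPM for the RN mice. RN replicate 3 reached the level of the highest RC mouse for Cldn5, which had a log2 difference of -0.22 in edgeR, with an SE of 0.188 and an adjusted p of 0.743. Leaving out RN replicate 1 gave -0.070.

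Among the 7 barrier transport genes, 2 (28.6%) were lower at an unadjusted p under 0.05 in edgeR, against 6.33% of all tested genes. The other 5 had log2 fold changes between -0.21 and 0.00585. Slc2a1, the glucose transporter GLUT1 of endothelium and astrocytes, was at 199, 202 and 195 CPM for the RC mice against 133, 183 and 144 CPM for the RN mice, without overlap, and had a log2 difference of -0.37 in edgeR, with an SE of 0.12 and an adjusted p of 0.255. Slco1c1, a thyroid hormone transporter of endothelium, astrocytes and choroid plexus, was at 65.2, 113 and 60.5 CPM for the RC mice against 40.9, 45.7 and 53.8 CPM for the RN mice, where RC replicate 2 stood apart. It had a log2 difference of -0.77 in edgeR, with an SE of 0.234 and an adjusted p of 0.23, and leaving out RC replicate 2 gave -0.43. The efflux pumps overlapped between the groups. Abcb1a, a P-glycoprotein gene, was at 48.6, 30.7 and 42.2 CPM for the RC mice against 36, 39.8 and 37.6 CPM for the RN mice, so that all RN mice lay within the RC range, and Abcg2, the breast cancer resistance protein, was at 31.6, 23.8 and 22.1 CPM for the RC mice against 25.5, 26.5 and 19.1 CPM for the RN mice. Their log2 fold changes were -0.100 (SE 0.16) and -0.13 (SE 0.18). Abcb1a has the close relative Abcb1b, with which it could share reads.

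Slc7a5, the large neutral amino acid transporter, lay at 74.3, 72.9 and 65 CPM for the RC mice against 74.8, 75 and 63.3 CPM for the RN mice, and its mean was 70.7 ± 5.01 CPM on average in RC against 71 ± 6.7 in RN (mean ± SD of 3 mice). Mfsd2a, which carries lysophospholipids and restrains transcytosis, lay at 19.2, 20.9 and 17.1 CPM for the RC mice against 14.3, 19.9 and 17.1 CPM for the RN mice. Slco1a4, an organic anion transporter, lay at 63.4, 49.6 and 55.1 CPM for the RC mice against 48.1, 53 and 44 CPM for the RN mice. The groups overlapped in all 3, with log2 fold changes of 0.00585 (SE 0.102), -0.16 (SE 0.156) and -0.21 (SE 0.118). With 3 mice a group, such overlap does not show that the levels were equal.

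**Figure D2:**
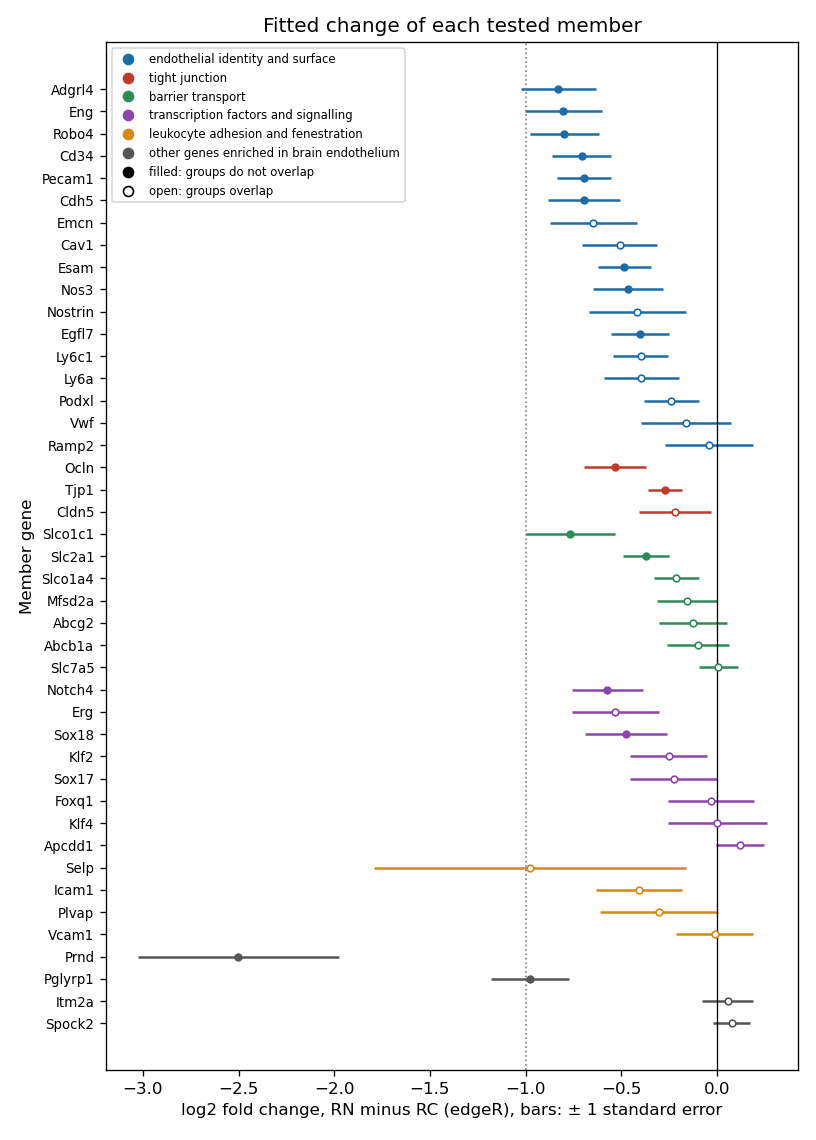
Fitted log2 fold change of RN against RC for each tested member, with 1 standard error on either side, ordered within its role; filled points mark members whose groups do not overlap, and the dotted line marks a 2-fold decrease. Prnd at -2.50 is the one point clearly beyond the dotted line, Pglyrp1 at -0.98 and Selp at -0.98 lie near it, and the 5 members above 0 reach at most 0.12.

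Of the 8 transcription factor and signalling genes, 2 (25%) were lower at an unadjusted p under 0.05 in edgeR, against 6.33% of all tested genes. For 2 (25%) the groups did not overlap, where 8.12% of all tested genes were lower without overlap. Notch4, the endothelial Notch receptor, was at 16.8, 15.2 and 12.9 CPM for the RC mice against 8.09, 9.89 and 12.2 CPM for the RN mice, with a log2 difference of -0.57 in edgeR, with an SE of 0.188 and an adjusted p of 0.262. Erg, the ETS factor that maintains endothelial identity, was at 13, 10.9 and 7.5 CPM for the RC mice against 6.19, 8.02 and 7.49 CPM for the RN mice, with a log2 difference of -0.53 in edgeR, with an SE of 0.226 and an adjusted p of 0.411. For Erg the RC mouse with the lowest level, replicate 3, lay among the RN mice. Sox18, a factor of vessel development, was at 13.2, 9.26 and 10.3 CPM for the RC mice against 6.01, 8.29 and 9.23 CPM for the RN mice, just separated, while its partner Sox17 had a log2 fold change of -0.23. The flow-responsive factors Klf2 and Klf4 had log2 fold changes of -0.25 and 0.00124, and Klf4 at 9.2, 10.0 and 7.27 CPM for the RC mice against 6.19, 12.1 and 8.22 CPM for the RN mice overlapped fully. Foxq1, a forkhead factor of brain endothelium, and Apcdd1, a Wnt inhibitor induced by Wnt in barrier endothelium, had log2 fold changes of -0.030 and 0.12.

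None of the 4 tested leukocyte adhesion and fenestration genes was lower or higher at an unadjusted p under 0.05. Icam1, the ligand of leukocyte integrins, was at 31.5, 27.1 and 23.3 CPM for the RC mice against 13.8, 25.5 and 22.3 CPM for the RN mice, a log2 difference of -0.41 in edgeR, with an SE of 0.224 and an adjusted p of 0.553. Vcam1, the ligand of the integrin VLA-4, was at 95.7, 91.2 and 64.8 CPM for the RC mice against 61.5, 96.8 and 91.1 CPM for the RN mice. For Vcam1, RC replicate 3 and RN replicate 1 were low, the 4 other mice lay together, and the log2 difference was -0.013 (SE 0.199). Plvap, which forms the diaphragms of fenestrated vessels and is otherwise low in barrier endothelium, was at 10.8, 16.1 and 6.82 CPM for the RC mice against 10.9, 9.36 and 7.05 CPM for the RN mice, with RC replicate 2 highest. Its log2 difference of -0.30 (SE 0.309) was 0.046 without that mouse. The selectins were rare. Selp, stored in platelets and endothelium, was read 28, 17 and 3 times in the RC mice and 6, 16 and 3 times in the RN mice, with a log2 difference of -0.98 (SE 0.815). Sele was read 5, 2 and 2 times in the RC mice and 5, 14 and 6 times in the RN mice, and without the filter on low counts edgeR gave it a log2 difference of 1.39 with an SE of 0.779 and an adjusted p of 0.602.

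The 4 other genes enriched in brain endothelium were 2 with groups apart and 2 with groups that overlapped. Of all tested genes, 8.12% were lower in RN with groups apart. Prnd, which encodes the prion-like protein doppel of endothelial cells, was read 321, 154 and 180 times in the RC mice, replicates 1 to 3, and 9, 52 and 58 times in the RN mice. All RN mice were well below all RC mice, at 12.5 ± 4.79 CPM on average in RC against 2.19 ± 1.45 in RN (mean ± SD of 3 mice). Prnd had the largest difference of the members, a log2 difference of -2.50 in edgeR, with an SE of 0.525 and an adjusted p of 0.124, and DESeq2's adjusted p for it was 6.16e-05. With each mouse left out in turn the log2 fold change of Prnd stayed between -2.89 and -2.05. Pglyrp1, a peptidoglycan recognition protein that is also made by neutrophils, was at 6.9, 8.55 and 8.94 CPM for the RC mice against 3.39, 4.22 and 4.75 CPM for the RN mice. The groups were apart, with a log2 difference of -0.98 in edgeR, with an SE of 0.205 and an adjusted p of 0.124 and a leave-one-out range of -1.09 to -0.86. Itm2a, a membrane protein, and Spock2, a proteoglycan that neurons and astrocytes also express, had overlapping groups. Itm2a was at 78.5, 78.8 and 66.2 CPM for the RC mice against 71.3, 91.8 and 69.1 CPM for the RN mice, and Spock2 at 1090.1, 921 and 1166 CPM for the RC mice against 1111, 1116 and 1125 CPM for the RN mice. Their log2 fold changes were 0.055 (SE 0.131) and 0.077 (SE 0.0965).

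**Figure D3:**
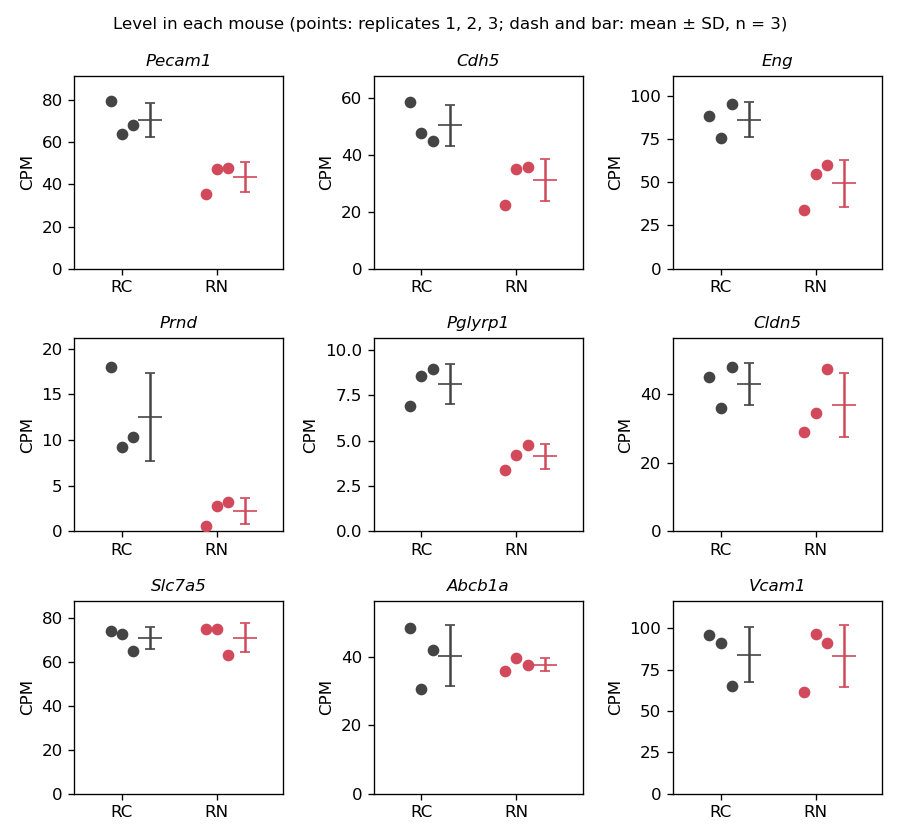
CPM of 9 members in each mouse (points, replicates 1 to 3 from left to right, RC in dark grey and RN in red), with the mean ± SD of each group (n = 3) beside them; all axes start at 0. Pecam1, Cdh5, Eng, Prnd and Pglyrp1 show separate groups, and Cldn5, Slc7a5, Abcb1a and Vcam1 show overlapping groups.

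Promoter windows from RefSeq (build GRCm38.p6, from 250 bases before the start of a transcript to 50 after it) were found for 29 of the 44 members, in 39 windows. They were searched on both strands for letters bound by factor families of endothelium. AGGAAG, an ETS-type site, was in 56.4% of the members' windows and in 35.4% of all 32851 windows. CCACCC, a KLF-type site, was in 41% and 31.5%, AACAAT, a SOX-type site, in 7.69% and 10.7%, and CTTTGAT, a TCF/LEF-type site, in 5.13% and 3.73%. These shares describe letters in a window, not binding. Windows of 3 lower members and, for contrast, of Abcb1a, whose groups overlapped, are printed 5′ to 3′ on the strand of the gene, with matches to these letters in capitals; in the window of Abcb1a matches of ETS and KLF type overlap. The window of Prnd is chr2:131950611-131950910 on the plus strand and has 1 KLF-type match in the window shown, the first of its 2 windows. That of Pglyrp1 is chr7:18884440-18884739 on the plus strand with 3 ETS-type matches. That of Eng is chr2:32646345-32646644 on the plus strand, and that of Abcb1a chr5:8566841-8567140 on the plus strand, each with 2 matches of ETS and 2 of KLF type.
Prnd: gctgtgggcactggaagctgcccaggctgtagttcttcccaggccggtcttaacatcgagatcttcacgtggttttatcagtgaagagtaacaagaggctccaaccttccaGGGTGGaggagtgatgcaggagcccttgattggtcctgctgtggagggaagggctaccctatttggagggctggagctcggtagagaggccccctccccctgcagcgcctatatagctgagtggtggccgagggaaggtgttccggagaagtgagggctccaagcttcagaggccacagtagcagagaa
Pglyrp1: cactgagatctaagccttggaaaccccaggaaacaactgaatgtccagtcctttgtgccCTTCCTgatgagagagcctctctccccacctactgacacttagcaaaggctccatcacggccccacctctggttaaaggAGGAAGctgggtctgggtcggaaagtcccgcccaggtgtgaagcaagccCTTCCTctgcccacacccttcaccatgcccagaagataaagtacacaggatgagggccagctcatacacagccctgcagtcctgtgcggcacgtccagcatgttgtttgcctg
Eng: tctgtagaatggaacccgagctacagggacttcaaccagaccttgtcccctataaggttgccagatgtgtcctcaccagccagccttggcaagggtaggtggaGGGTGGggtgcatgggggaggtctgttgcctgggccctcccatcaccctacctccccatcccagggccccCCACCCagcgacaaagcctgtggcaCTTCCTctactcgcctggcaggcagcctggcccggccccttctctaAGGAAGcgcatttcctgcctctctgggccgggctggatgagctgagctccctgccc
Abcb1a: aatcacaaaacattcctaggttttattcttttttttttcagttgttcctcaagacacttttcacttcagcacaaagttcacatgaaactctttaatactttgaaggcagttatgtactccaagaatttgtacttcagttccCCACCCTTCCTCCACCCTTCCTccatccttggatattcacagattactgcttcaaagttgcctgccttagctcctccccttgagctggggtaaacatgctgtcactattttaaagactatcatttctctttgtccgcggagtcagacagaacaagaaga

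The members varied among mice in a shared way. RC replicate 1 had the highest CPM for 24 of the 43 tested members, where it had the highest CPM for 13.6% of all tested genes. RN replicate 1 had the lowest for 29, against 16.6% of all tested genes, and the highest for 0. Relative to the RC mean, the median member lay at -0.60, -0.19 and -0.36 (log2) in RN replicates 1 to 3, and at 0.14, -0.024 and -0.081 in RC replicates 1 to 3. All 3 RN mice were thus below all 3 RC mice at the median, with RN replicate 2 nearest to RC. Highest of the RC mice in the members, RC replicate 1 also had the highest summed level of 8 lymphocyte markers, 54.5 CPM against 23.1 to 34 CPM in the other mice, and the part of this in the levels of the members was not tested.

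To set the members against vessel RNA in the same library, each was compared with the mean log2 CPM of 7 pan-endothelial genes outside the set (Tie1, Cd93, Clec14a, Ecscr, Ptprb, Rasip1 and Cyyr1). These 7 were a part of the 22 pan-endothelial genes listed, and the full 22 were not tried as a reference. This reference differed by -0.44 (log2) between RN and RC. Relative to it, 24 members were higher in RN and 19 lower. This split depends on the reference, because some members lay near 0, such as Nostrin at 0.0015 and Icam1 at -0.0034. The share of all tested genes in each direction was not counted. The groups did not overlap for 5 lower members against 1.01% of all tested genes, namely Pecam1, Cdh5, Robo4, Cd34 and Prnd, with differences in log2 level of -0.26, -0.28, -0.37, -0.29 and -2.27. They also did not overlap for 6 higher members, Slc7a5, Abcb1a, Mfsd2a, Apcdd1, Itm2a and Spock2, a smaller share than the 51% of all tested genes that were higher relative to this reference. Barrier transport genes had a median difference of 0.28 and identity genes of -0.048. Because the reference itself was lower in RN, a gene with equal levels in both groups lies above 0 on this scale. A median above 0 is thus not a higher level in RN. Without the reference, the median log2 fold change was -0.16 for barrier transport genes, -0.48 for identity genes and 0.00372 for all tested genes. The median of all tested genes relative to the reference was not computed. With the members Pecam1, Cdh5, Esam, Egfl7 and Erg as the reference in its place, which are then compared with a mean they enter, 3 members were lower without overlap against 0.582% of all tested genes, 9 were higher against 61.9%, and 7 members changed sign. Relative to that mean, 31 members were higher in RN and 12 lower.

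**Figure D4:**
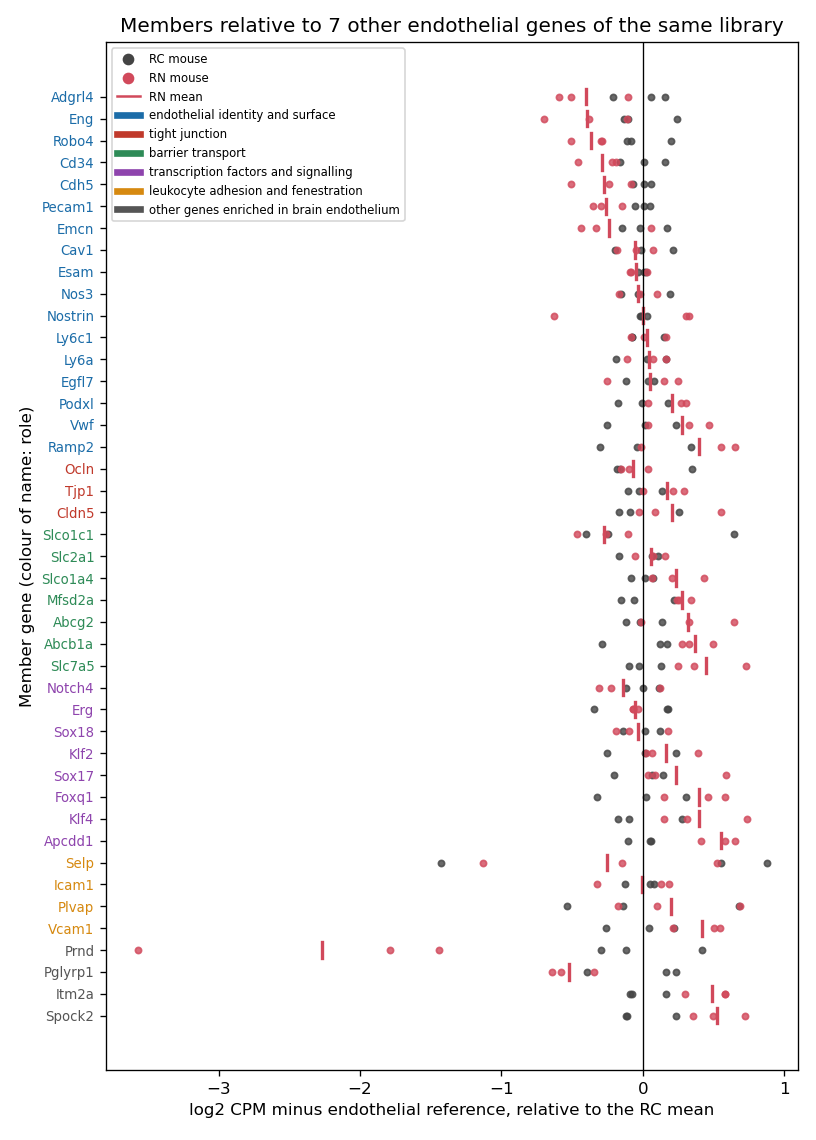
Level of each tested member relative to the mean of 7 other endothelial genes in the same library (log2, with the RC mean of each member set to 0), for RC mice in grey and RN mice in red, with the RN mean as a vertical dash. Prnd lies far to the left in all RN mice, and Slc7a5, Abcb1a, Mfsd2a, Apcdd1, Itm2a and Spock2 lie to the right of all RC mice.

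Other genes of the same pathways were counted by lists. At an unadjusted p under 0.05 in edgeR, 6.33% of all tested genes were lower and 5.44% higher. The shares lower were 40.9% in the pan-endothelial list, 20% in the Wnt list and 33.3% in the junction list. Of the pan-endothelial genes outside the set, 9 of 22 tested genes were lower and 0 higher at an unadjusted p under 0.05 in edgeR. The smallest p were those of Kdr, the main VEGF receptor, at 47.3, 47.7 and 45.7 CPM for the RC mice against 22.3, 29.4 and 33.7 CPM for the RN mice, of Tie1, an angiopoietin co-receptor, at 31.5, 26.4 and 27 CPM for the RC mice against 17.3, 21 and 19.6 CPM for the RN mice, and of Clec14a, an endothelial lectin, at 19.1, 12.9 and 12.4 CPM for the RC mice against 6.01, 9.57 and 9.51 CPM for the RN mice. All 3 had separate groups, with log2 fold changes of -0.72, -0.55 and -0.82 and adjusted p of 0.124, 0.137 and 0.218 from edgeR. In the Wnt and beta-catenin list 3 of 15 tested genes were lower and 0 higher at an unadjusted p under 0.05 in edgeR, and all 15 had a fitted level below RC. Tnfrsf19, a Wnt target receptor also found in astrocytes, had a log2 fold change of -0.50, Reck, a co-receptor for Wnt7 ligands, of -0.47, and Fzd4, the receptor for norrin, of -0.87. Fzd4 was at 19.9, 34.7 and 13.4 CPM for the RC mice against 10.7, 14.3 and 12.1 CPM for the RN mice. Its groups overlapped, and RC replicate 2 stood apart.

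For the other junction genes, 4 of 12 tested genes were lower and 0 higher at an unadjusted p under 0.05 in edgeR, led by Cgnl1, a cingulin relative, and Ctnna1, the alpha-catenin of adherens junctions, with log2 fold changes of -0.83 and -0.42. For the other barrier transporters, 1 of 17 tested genes was lower and 2 higher at an unadjusted p under 0.05 in edgeR. The share lower, 5.88%, was near the 6.33% of all tested genes, and 5.44% of all tested genes were higher. Slc38a3, a glutamine transporter that astrocytes express strongly, was the lower one at -0.95, and Slc6a6, the taurine transporter, and Slc7a1, a cationic amino acid transporter, were the higher ones at 0.31 and 0.29. At an adjusted p under 0.05 with a 2-fold change, edgeR and DESeq2 called 0 genes of these 4 lists. Of all tested genes, edgeR called 0.0735% in either direction and DESeq2 called 0.542% lower. Without the fold threshold, DESeq2 found 3 pan-endothelial, 1 Wnt, 2 junction and 1 transporter gene lower, where 1.7% of all tested genes were lower. It found 0 of these lists higher, where 226 of the 14956 tested genes were higher.

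Markers of other cell types were read beside the members, where 6.33% of all tested genes were lower and 5.44% higher at an unadjusted p under 0.05 in edgeR. In the 14 pericyte and smooth muscle genes, which mark the cells around the vessel, 0 of 14 tested genes were lower and 1 higher at an unadjusted p under 0.05 in edgeR, and their summed level of 443 to 483 CPM among the RC mice and 412 to 545 CPM among the RN mice overlapped. The higher one was Anpep, an aminopeptidase also made by fibroblasts and myeloid cells, at 23.8, 30.5 and 22.1 CPM for the RC mice against 46.1, 68.7 and 56.1 CPM for the RN mice. Anpep had a log2 fold change of 1.16 and an adjusted p of 0.0661 in edgeR. DESeq2 called it higher at the 2-fold threshold, with an adjusted p of 4.51e-07, as it did 98 of the 14956 tested genes. Rgs5 and Cspg4, which mark pericytes, had log2 fold changes of -0.31 and -0.22, neither at that threshold. Of the 8 microglia and the 6 tested lymphocyte genes, 0 had an unadjusted p under 0.05 in edgeR. The median log2 fold change was 0.072 for microglia genes and -0.72 for lymphocyte genes, of which 4 lay below RC and 2 above. Of the 8 fibroblast genes, which mark cells of the vessel sheath and the meninges, only Col3a1 did, at 0.95, and the median was 0.52, with a summed level of 107 to 219 CPM among the RC mice and 176 to 332 CPM among the RN mice. Thalamic neuron markers had a median log2 fold change of -0.49 with 0 of 10 genes at that threshold.

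Astrocyte markers differed between the groups as well, at 70% lower against 6.33% of all tested genes at an unadjusted p under 0.05 in edgeR. For these 10 genes, 7 of 10 tested genes were lower and 0 higher at an unadjusted p under 0.05 in edgeR, and the summed level was 4096 to 4969 CPM among the RC mice and 3048 to 3568 CPM among the RN mice, without overlap. Aldoc, a glycolytic enzyme of astrocytes, Hepacam, an astrocyte adhesion protein, and Aqp4, the endfoot water channel, had log2 fold changes of -0.76, -0.53 and -0.75. Slc2a1, Slco1c1, Tjp1 and Spock2 are expressed by astrocytes too, and the part of astrocyte RNA in their values was not tested.

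Choroid plexus markers had a fitted level below RC in all 14 genes, with a median log2 fold change of -3.79, and 13 at an unadjusted p under 0.05 in edgeR. Of all tested genes, 6.33% were lower at that threshold. Ttr, the transthyretin of that epithelium, was at 2480.2, 7626 and 257 CPM for the RC mice against 24.7, 62.5 and 91.8 CPM for the RN mice. With the mean centred log2 CPM of the 14 genes as a covariate in edgeR, 8 members were lower at an unadjusted p under 0.05, where 4.44% of all tested genes were lower. They were Pecam1, Eng, Robo4, Adgrl4, Cd34, Tjp1, Prnd and Pglyrp1, and their log2 fold changes in that fit were -0.68, -0.95, -0.94, -0.95, -0.55, -0.35, -2.31 and -1.02. Slco1c1 went to -0.12 (SE 0.229), Ocln to -0.13 (SE 0.194) and Erg to -0.043 (SE 0.309). Plvap, which the fenestrated vessels of the choroid plexus express, changed sign to 0.59 (SE 0.357). In the same fit, 2 of the 22 pan-endothelial genes outside the set, 4 of the 15 Wnt genes, 0 of the 12 other junction genes and 0 of the 17 other transporters were lower at an unadjusted p under 0.05. Among the lower genes named from these lists, Cgnl1 went to -0.15 and Ctnna1 to -0.15, and Fzd4 changed sign to 0.18. Reck went to -0.23, Tnfrsf19 to -0.57 and Slc38a3 to -0.43. Kdr, Tie1 and Clec14a went to -0.62, -0.52 and -0.62. Of the cell markers, 5 of 10 astrocyte genes and 7 of 10 thalamic neuron genes were lower in that fit, the latter with a median log2 fold change of -1.18. The part of choroid plexus RNA in the members' values was not tested beyond this fit.

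**Figure D5:**
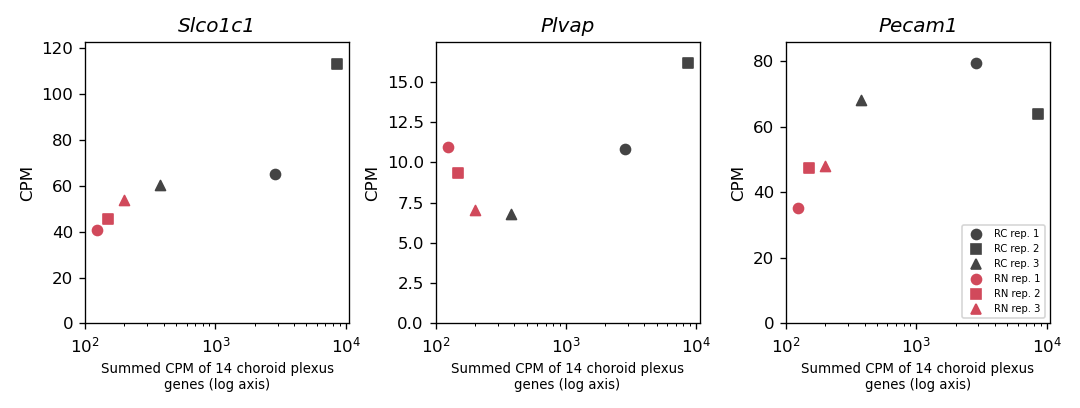
CPM of Slco1c1, Plvap and Pecam1 in each mouse (vertical axes from 0) against the summed CPM of 14 choroid plexus genes (log axis), RC in dark grey and RN in red, with a symbol for each replicate number. RC replicate 2 is highest on the horizontal axis and for Slco1c1 and Plvap, and RC replicate 1 is highest for Pecam1, at 79.4 CPM.

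Levels were compared between genes per kilobase of exon (union of the exons in GENCODE M21). In RC the mean level was highest for Spock2, at 191 CPM per kilobase, followed by Ly6a at 57.1, Slc2a1 at 56.7, Ly6c1 at 48.5, Itm2a at 42.7 and Cldn5 at 30.4 CPM per kilobase. In RN these were 202, 43.4, 43.8, 36.8, 44.4 and 26.1 CPM per kilobase. The selectins were lowest, with Selp at 0.208 and Sele at 0.0589 CPM per kilobase in RC. Prnd went from 3.89 CPM per kilobase in RC, near Robo4 at 3.86, to 0.681 in RN, below Sox17 at 0.924.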

How the data were processed

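RNA was extracted from thalamus of 6 mice, 3 RC and 3 RN, each labelled as a separate mouse, and libraries were made with a NEBNext Ultra kit and sequenced on a NovaSeq instrument. The authors deposited 1 table of raw read counts per gene. The submitters' processing notes name fastp 0.18.0, FastQC, HISAT2 2.2.4, RSEM 1.2.19 and GRCm39, with no role or order. The annotation, the strand setting and the handling of reads shared between genes are not given in the sources used here. All deposited counts were whole numbers.

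Counts were analysed in R 4.3.3 with edgeR 4.0.16 (TMM normalisation, filterByExpr with a minimum count of 10, quasi-likelihood test with the group alone) and limma 3.58.1. Benjamini-Hochberg adjustment ran over all 14956 tested genes, and a call needed an adjusted p under 0.05 and at least a 2-fold change. CPM used the TMM factors, and log2 levels added a prior count of 2. Totals of 16561663 to 18657015 counts put 3 counts, the limit that a count of 0 allows, at 0.16 to 0.179 CPM, which covers counting error only. Alternatives were DESeq2 1.42.0, DESeq2 size factors in edgeR, no filter, at least 10 counts in every mouse, a replicate block, a covariate for choroid plexus RNA (the mean of 14 centred log2 CPM values) and each mouse left out. Replicate numbers in the titles were checked as pairs: deviations from the group means correlated at 0.173, 0.12 and 0.209 for numbers 1 to 3, each above the limit of 0.1 set for treating numbers as pairs. The unmatched RC replicate 1 and RN replicate 2 correlated at 0.156, more than the matched replicates 2. The labels do not say that mice of the same number are pairs, and such correlations do not show it. Under that limit the numbers were treated as pairs in the block, and the block changed no member's call.

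The members and gene lists were chosen with earlier results of these data known. Values per mouse are given for the 3 members of smallest p in each role, for all members of small roles, for members that changed their call under an alternative, and for 11 named endothelial and barrier genes. Other members shown by mouse were chosen after their values were seen, as were the genes whose promoters are printed. Of the other lists, the up to 3 genes of smallest p are named, except 1 that is not reported here. Chi-square per degree of freedom between libraries was 16.3 to 44.3, so no library was a copy of another. Promoters came from RefSeq (GRCm38.p6) and exon lengths from GENCODE M21 (GRCm38), a build other than that of the notes, so only windows of the reference itself carry coordinates. The tests were tested on simulated data. The planted changes there were larger than the differences of all members but Prnd. The simulated covariate overlapped between the groups, unlike that for choroid plexus RNA, so the simulation does not cover the covariate fit as used here.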

Additional observations from a re-analysis of the deposited data

How the results depend on the processing

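Across alternatives the direction of most members was kept. Of 256 log2 fold changes of single members under another setting, 11 changed direction, and of 258 with 1 mouse left out, 24 did. DESeq2 called 1 member (Prnd) where edgeR called 0, and over all genes it called 98 higher and 81 lower, against 9 and 2 in edgeR, 36 and 7 without the filter, and 17 and 5 with the replicate block. With each mouse left out the calls over all genes ran from 3 to 26 higher and 0 to 18 lower. The choroid plexus covariate gave 0 higher and 1 lower over all genes. It left 8 members lower at an unadjusted p under 0.05 in edgeR, where 20 were lower without it. All RN mice lay below all RC mice in this covariate, so its fit cannot tell choroid plexus RNA apart from the virus. The median log2 fold change of the members was -0.32 with the covariate and -0.40 without. For identity genes the median was -0.50 with and -0.48 without, and for transcription factor and signalling genes -0.015 with and -0.24 without.

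The replicate block, which treats mice of the same number as pairs though the labels do not give pairs, gave 18 members lower at an unadjusted p under 0.05 and changed no member's call. With it, Klf4 went to -0.035 (log2 fold change).

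With each mouse left out in turn, the members called stayed between 0 and 0, those lower at an unadjusted p under 0.05 between 11 and 22, those higher at 0, those lower without overlap between 17 and 27, those higher without overlap between 0 and 1, and the median log2 fold change between -0.52 and -0.30. Log2 fold changes that changed sign ranged from -0.22 to 0.13 for Ramp2, -0.36 to 0.068 for Vwf, -0.051 to 0.083 for Slc7a5, -0.26 to 0.052 for Abcb1a, -0.23 to 0.043 for Abcg2, -0.30 to 0.20 for Klf4, -0.24 to 0.092 for Foxq1, -0.033 to 0.20 for Apcdd1, -0.17 to 0.16 for Vcam1, -0.56 to 0.046 for Plvap, -0.091 to 0.13 for Itm2a and -0.014 to 0.15 for Spock2.

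With the choroid plexus covariate the log2 fold change changed sign to 0.44 for Ramp2, 0.19 for Vwf, 0.059 for Podxl, 0.0801 for Mfsd2a, 0.013 for Sox17, 0.15 for Foxq1, 0.44 for Vcam1, 0.96 for Selp, 0.59 for Plvap and -0.14 for Spock2. The cause was not tested in any of these. With at least 10 counts in every mouse, Prnd and Selp were not tested.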
